A study of Mus musculus with 6 samples.

Results

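Autophagy encloses cytoplasm in a double membrane and delivers it to the lysosome, and mitophagy is the form of it that removes mitochondria. The ULK1 kinase complex and the PI3-kinase complex around Beclin 1 start the membrane. A ubiquitin-like conjugation system then couples the small ATG8 proteins (the LC3 and GABARAP families) to the membrane lipid phosphatidylethanolamine, a step called lipidation, and cargo receptors tether their load to the lipid-bound ATG8. The MiT/TFE transcription factors drive many lysosomal and autophagy genes. The 36 genes described here were picked by their symbols and without a cutoff on their values, but with earlier results of these data known. All 36 were found among the 22355 rows of the deposited table. They fall into 12 genes of initiation and nucleation, 7 of lipidation, 5 ATG8 proteins, 5 cargo receptors, 3 mitophagy genes, 3 MiT/TFE factors and the fusion gene Stx17.

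The libraries are of RNA from cells labelled MEFs, mouse embryonic fibroblasts: 3 carry the treatment label siControl and 3 the label siHk2. An siRNA steers the breakdown of a transcript that it pairs with, and Hk2 is the gene of hexokinase 2, the glycolytic enzyme that makes glucose 6-phosphate and can sit on the outer mitochondrial membrane. For both groups the labels used here state neither genotype, strain and age nor the siRNA sequence, its delivery or its duration. Libraries are named by their column numbers, 4, 5 and 6 for siControl and 1, 2 and 3 for siHk2. Separate cultures are not stated for the libraries of a group, so p-values cover only the spread between these libraries, which may be technical.

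Levels are TPM, a length-corrected transcript level scaled to the same total in each library. Levels of different genes can therefore be set side by side; the depth behind them is unknown and no counting interval can be given. Hk2 was at 57.1, 62.5 and 58.9 TPM in siControl and at 22.4, 21.4 and 21.8 TPM in siHk2, so the target was lower in every siHk2 library. Of 9 fibroblast markers, 6 reached a mean of 1 TPM, while Thy1, Dcn and Lum stayed below 1 TPM in every library. The list summed to 3330 to 3439 TPM in siControl and to 3047 to 3205 TPM in siHk2. Most of that sum was Vim, with a mean of 2365 TPM in siControl and 1969 TPM in siHk2. Pdgfra also had a lower mean in siHk2, but Col1a1, Col1a2, Col3a1 and Pdgfrb had higher ones. The summed adipocyte markers stood at 751 to 783 TPM in siControl and at 1207 to 1265 TPM in siHk2, with Lpl and Cidec higher and the defining marker Adipoq at or below 0.35 TPM throughout. The summed glial and neuronal markers, mostly S100b, stood at 90.6 to 95.6 TPM and 137 to 150 TPM. The summed epithelial markers, mostly Krt7, stood at 1.98 to 2.43 TPM and 6.02 to 8.57 TPM. The part of these shifts in the results on autophagy genes was not tested, and in bulk RNA fewer cells of a type and less RNA per cell cannot be told apart.

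All 36 genes were expressed and all 36 passed the filter, a mean of 1 TPM or more. In siControl their mean levels ran from 4.68 TPM (Mitf) to 1907 TPM (Sqstm1), with a median of 38.7 TPM. The receptor gene Sqstm1 and the ATG8 gene Gabarap stood far above the rest; the next, Bnip3l, was at 163 TPM. Together the 36 genes summed to 4135 to 4415 TPM in the siControl libraries. In the siHk2 libraries they summed to 4445 to 4482 TPM, without overlap. This sum leans on its 2 most abundant genes, Sqstm1 (means of 1907 and 1904 TPM) and Gabarap (721 and 792 TPM), and was not tested. Among the controls, 19 of the 36 genes were highest in library 5. Among the siHk2 libraries, 15 of the 36 were highest in library 2, and both held for 11. These counts were not taken over all tested genes, and the libraries of the groups cannot be paired, so no shared movement is read from them.

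**Figure D1:**
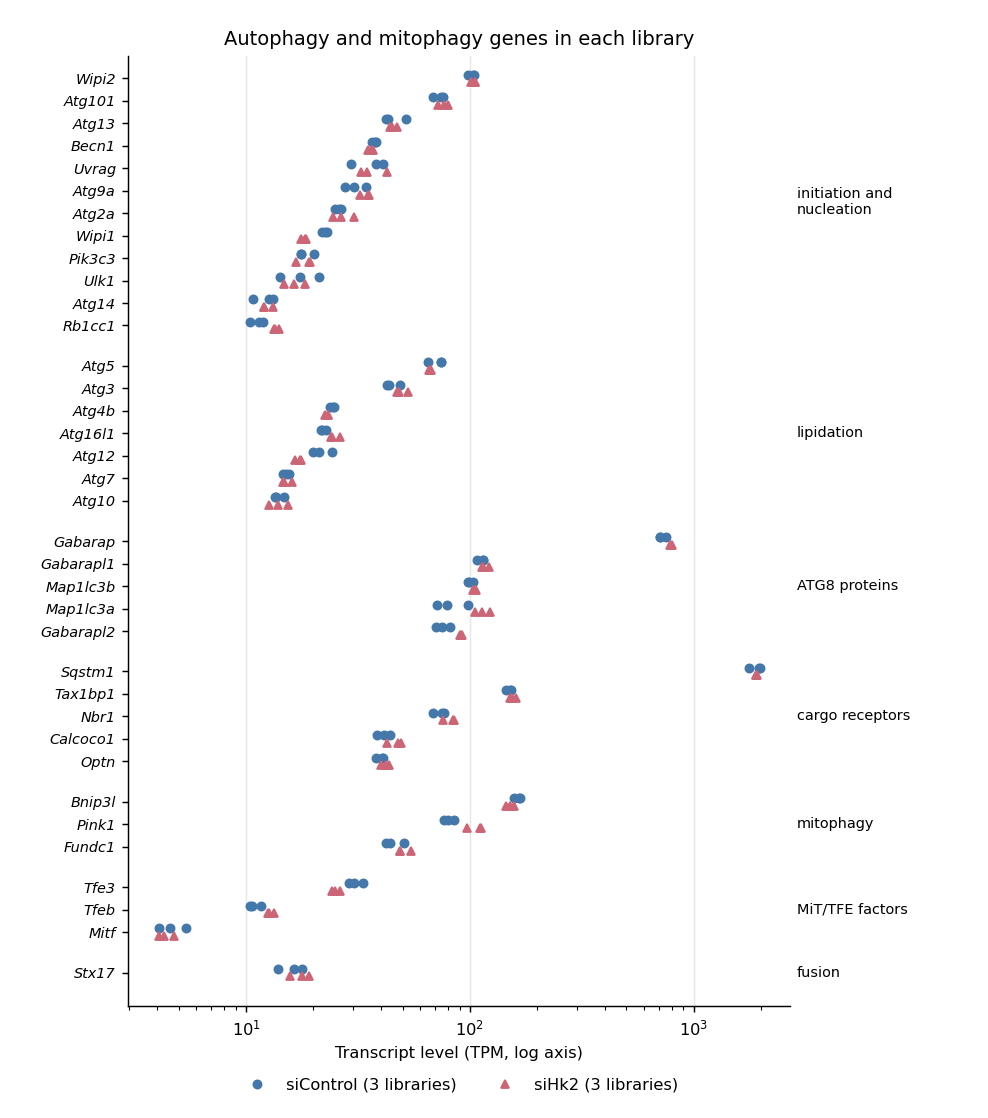
Level of each of the 36 genes in every library (TPM, log axis), ordered by role and, within a role, by the siControl mean; circles are the 3 siControl libraries and triangles the 3 siHk2 libraries. The siControl means span from 4.68 TPM (Mitf) to 1907 TPM (Sqstm1), and the 2 groups overlap for 24 of the 36 genes.

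The question put to these genes was which of them differed between siHk2 and siControl. Differences were tested in limma on log2(TPM + 1) over all 13341 genes whose mean reached 1 TPM, two-sided, and an adjusted p (Benjamini-Hochberg) under 0.05 counts as past the threshold. Map1lc3a, Gabarapl2 and Pink1 rose, Wipi1, Atg12 and Tfe3 fell, and 30 did not pass. These 6 of 36 (16.7%) stand against 13.6% of all tested genes, with 6.15% of all tested genes higher and 7.42% lower, so the share of autophagy genes past the threshold was near the background. The median log2 difference was 0.06 over the 36 genes and 0.01 over all tested genes; 24 of the 36 lay above 0, as did 51.2% of all tested genes. The groups did not overlap for 12 of the 36 (33.3%), as for 35.7% of all tested genes.

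The changes were small. The largest rise among the 36 was 0.47 on the log2 scale and the largest fall 0.32. For each of the 30 genes that did not pass, the 95% confidence interval of the log2 difference lay between -0.41 and 0.44. For 22 of the 36 genes the group means differed by less than 10%. By the coordinates in the deposited table (GRCm39, according to the submitters' processing notes) Map1lc3a lies on chromosome 2 (plus strand, 155118217 to 155119993), Gabarapl2 on chromosome 8 (plus, 112667335 to 112680244), Pink1 on chromosome 4 (minus, 138040720 to 138053618), Wipi1 on chromosome 11 (minus, 109464157 to 109502793), Atg12 on chromosome 18 (minus, 46863211 to 46874647) and Tfe3 on chromosome X (plus, 7628799 to 7641441). No other row of the table overlaps these 6 genes. For 10 of the 36 genes another row does, and the sources used here do not give whether reads were counted by strand. Among those rows, Thap4 shares 3365 bases with Atg4b on the opposite strand and was at 28.0 and 22.7 TPM, and Zcchc14 shares 58 bases with Map1lc3b and was at 39.1 and 38.4 TPM. The calls changed with the libraries used, over all tested genes as well as among the 36. With every library in the fit, 1810 of the 13341 tested genes passed. Dropping siControl library 4, 5 or 6 gave 662, 1555 and 2129 genes. Dropping siHk2 library 1, 2 or 3 gave 866, 720 and 506 genes. Whether the 36 lost more calls than other genes was not tested. Without siControl library 4, siHk2 library 2 or siHk2 library 3, 0 of the 36 genes passed, and without siHk2 library 1 only Pink1 did; without siControl library 5, 4 were higher and 2 lower, and without siControl library 6, 2 were higher and 2 lower.

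**Figure D2:**
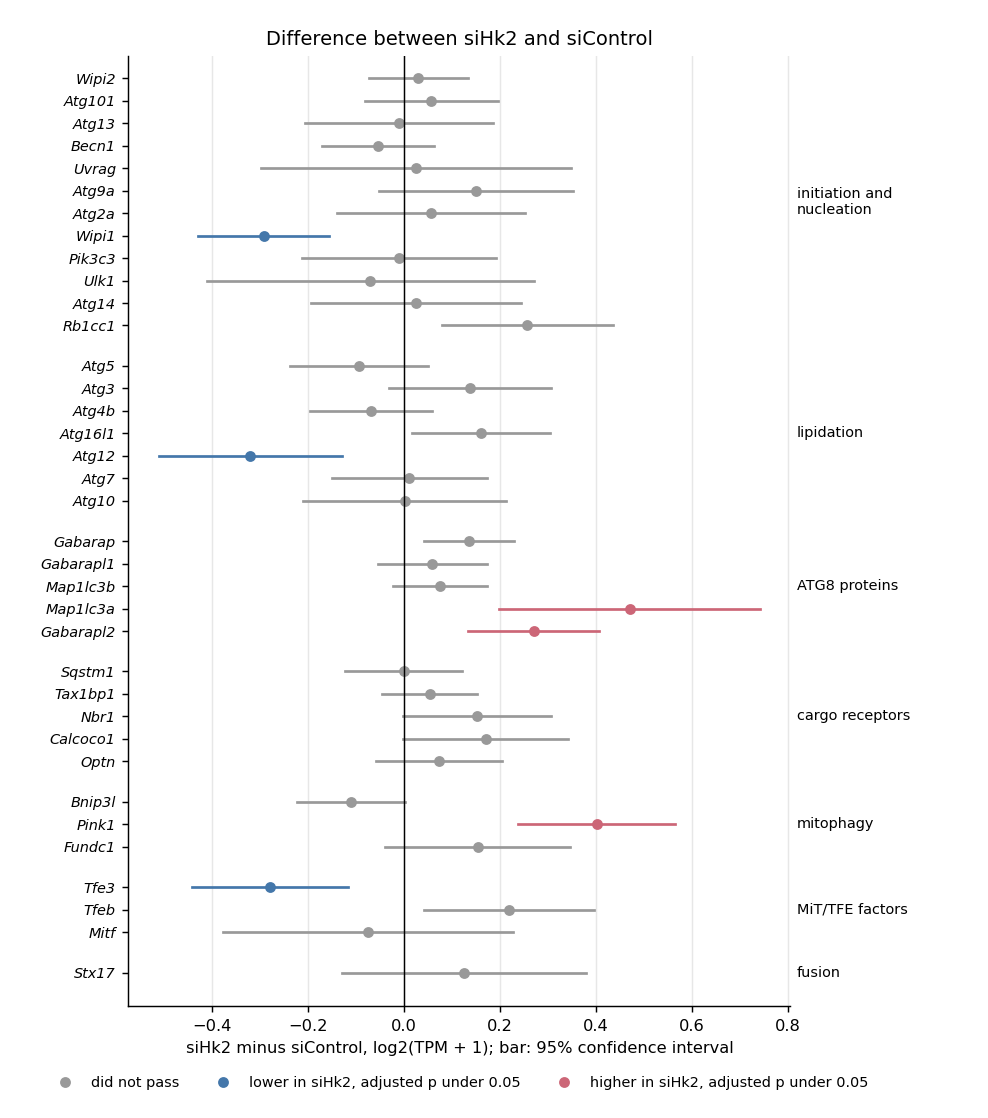
Difference between siHk2 and siControl for each of the 36 genes on the log2(TPM + 1) scale, with its 95% confidence interval from limma. The 3 genes that rose (Map1lc3a, Gabarapl2, Pink1) and the 3 that fell (Wipi1, Atg12, Tfe3) are coloured, and grey intervals belong to the 30 genes that did not pass.

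Of the 12 genes that start the autophagosome, 1 fell and none rose, and 11 did not pass. Wipi1, which encodes a protein that binds phosphatidylinositol 3-phosphate on the forming membrane, was at 22.6, 21.9 and 22.9 TPM in siControl and at 18.5, 18.3 and 17.7 TPM in siHk2. Every siHk2 library lay below every control library, and the difference of -0.29 (SE 0.058, adjusted p = 0.0199 in limma) corresponds to a mean 19.2% lower. Its paralogue Wipi2, which recruits the lipidation machinery through ATG16L1, was more abundant and did not pass, at 102 ± 3.27 and 104 ± 2.36 TPM (SD, n = 3).

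The 4 subunits of the ULK1 complex did not pass. Rb1cc1, which encodes the large scaffold FIP200, came nearest: it was at 11.4, 11.8 and 10.5 TPM in siControl and at 13.3, 14.0 and 13.5 TPM in siHk2, with no overlap (log2 difference 0.26, adjusted p = 0.0656 in limma). The kinase gene Ulk1 varied most with the library, at 17.4, 21.2 and 14.1 TPM in siControl and at 14.8, 18.4 and 16.4 TPM in siHk2, and its confidence interval from -0.41 to 0.27 was the widest of the 12. Atg13, the regulatory subunit that links ULK1 to FIP200, was at 45.8 ± 5.36 and 45.3 ± 1.63 TPM, and Atg101, its partner, at 73.1 ± 4.00 and 76.1 ± 3.57 TPM (SD, n = 3).

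The subunits of the PI3-kinase complex did not pass. Pik3c3, the lipid kinase subunit VPS34, was at 18.5 ± 1.47 and 18.3 ± 1.48 TPM. Becn1, the scaffold Beclin 1, was at 37.5 ± 0.798 and 36.1 ± 0.891 TPM, Atg14, which directs the complex to the forming autophagosome, at 12.2 ± 1.27 and 12.4 ± 0.65 TPM, and Uvrag, which takes the place of ATG14 in an endosomal form of the complex, at 36.03 ± 5.84 and 36.6 ± 5.17 TPM (SD, n = 3). The log2 differences of these 4 genes ran from -0.05 to 0.03 and none passed. For the membrane supply, the lipid scramblase gene Atg9a was at 30.9 ± 3.38 and 34.3 ± 1.86 TPM and the lipid transfer gene Atg2a at 25.9 ± 0.844 and 27.1 ± 2.99 TPM (SD, n = 3), and neither passed. For Atg9a, 42.3% of the 50-base windows along its longest transcript are also found in other genes, which leaves its level uncertain.

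Of the 7 genes of the conjugation system and the ATG4 protease, Atg12 fell and 6 did not pass. Atg12 encodes the ubiquitin-like protein that is joined to ATG5 to make the ligase of ATG8. It was at 24.1, 20 and 21.2 TPM in siControl and at 17.5, 16.5 and 17.6 TPM in siHk2, without overlap, a mean 21.0% lower (log2 difference -0.32, SE 0.082, adjusted p = 0.0431 in limma). The other parts of the same ligase did not pass: Atg5 was at 71.1 ± 5.39 and 66.5 ± 0.51 TPM (adjusted p = 0.356 in limma), and Atg16l1, which places the ligase on the membrane, at 22.1 ± 0.659 and 24.8 ± 1.19 TPM (SD, n = 3; adjusted p = 0.127 in limma), higher in every siHk2 library.

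The enzymes upstream of that ligase did not pass. Atg7, the activating enzyme of both ATG12 and ATG8, was at 15.01, 15.6 and 14.6 TPM in siControl and at 14.7, 16.0 and 14.8 TPM in siHk2. Atg10, the conjugating enzyme of ATG12, had nearly the same mean in both groups, 13.9 ± 0.76 and 14.0 ± 1.42 TPM, and Atg3, the conjugating enzyme of ATG8, was at 44.9 ± 3.41 and 49.5 ± 3.10 TPM (SD, n = 3). Atg4b, the protease that trims ATG8 and takes it off the membrane again, was at 24.2 ± 0.478 and 23.1 ± 0.382 TPM (SD, n = 3); every siHk2 library lay below the controls, yet the difference of -0.07 did not pass.

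MiT/TFE factors bind DNA elements built around the E-box CACGTG. A promoter window of 300 bases around the annotated start was found in RefSeq for 29 of the 36 genes, on build GRCm38.p6, and those of Atg3, Atg5, Atg7 and Atg14 held this hexamer, which reads the same on both strands. That is 13.8% of the 29 genes, against 11.8% of the tested genes with a window and 7.15% of all windows. These stretches are shown because they are the E-boxes found in the set, 5′ to 3′ on the gene's strand, with the hexamer in capitals.
Atg7 (chr6:114670940-114670993, plus strand): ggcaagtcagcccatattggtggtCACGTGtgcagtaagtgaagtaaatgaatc
Atg5 (chr10:44268301-44268354, plus strand): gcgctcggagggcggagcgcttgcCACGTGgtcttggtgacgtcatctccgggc
Atg14 (chr14:47568406-47568459, minus strand): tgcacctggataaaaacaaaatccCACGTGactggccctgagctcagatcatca
Atg3, upstream copy (chr16:45158711-45158764, plus strand): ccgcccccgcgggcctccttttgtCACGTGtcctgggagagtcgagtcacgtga
Atg3, downstream copy (chr16:45158734-45158787, plus strand): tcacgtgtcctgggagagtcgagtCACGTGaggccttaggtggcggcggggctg
None of these 4 genes passed the threshold, and their log2 differences were 0.01 for Atg7, -0.09 for Atg5, 0.02 for Atg14 and 0.14 for Atg3. The 7-base form TCACGTG, searched on both strands and overlapping the hexamer, was in the windows of Atg3, Atg7 and Atg14, and the FOXO core GTAAACA, searched on both strands, was in 0 of the 29 genes and in 2.94% of the tested genes with a window. A match is a description of the letters only.

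All 5 ATG8 genes had higher means in siHk2, against 51.2% of all tested genes with a log2 difference above 0. Of the 5, 2 rose (40.0%), against 6.15% of all tested genes. Map1lc3a, which encodes LC3A, was at 78.7, 98.3 and 71.2 TPM in siControl and at 106, 113 and 124 TPM in siHk2. The lowest siHk2 library lay just above the highest control library, siControl library 5, and the mean rose 1.38-fold (log2 difference 0.47, SE 0.12, adjusted p = 0.0387 in limma). Gabarapl2, which encodes GATE-16, was at 75.0, 70.3 and 81.2 TPM in siControl and at 91.0, 90.6 and 91.8 TPM in siHk2, so the siHk2 libraries lay close together above all controls (1.21-fold, log2 difference 0.27, SE 0.058, adjusted p = 0.0255 in limma). For Gabarapl2, 17.01% of such 50-base windows are found in other genes too, the most in Gm3724.

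Gabarap, the most abundant ATG8 transcript, was at 705, 749 and 710 TPM in siControl and at 793, 785 and 798 TPM in siHk2. The groups did not overlap, but the rise of 0.14 did not pass (adjusted p = 0.0667 in limma); it passed without siControl library 5 (adjusted p = 0.0470 in limma) and with library weights, and over all 14 alternative settings the adjusted p in limma ran from 0.00969 to 0.213. Map1lc3b, which encodes LC3B, the form most often followed as a marker of autophagosomes, was at 97.8, 98.7 and 103 TPM in siControl and at 103, 105 and 107 TPM in siHk2. Its groups were separate by a narrow margin and the difference of 0.07 did not pass. Gabarapl1 overlapped, at 112 ± 3.96 and 117 ± 4.58 TPM (SD, n = 3).

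Summed over the 5 genes, ATG8 transcripts stood at 1070, 1131 and 1072 TPM in siControl and at 1215, 1209 and 1234 TPM in siHk2. Gabarap made up 65.9% to 66.3% of that sum in siControl and 64.7% to 65.3% in siHk2. The ratio of Map1lc3a to Map1lc3b was 0.805, 0.996 and 0.692 in siControl and 1.02, 1.08 and 1.16 in siHk2. It was higher in every siHk2 library than in every control library, and was not tested. In siControl library 5 the 2 transcripts were nearly level, at 98.3 and 98.7 TPM, so their order there is not settled. For Map1lc3b, 9.20% of such 50-base windows are found in other genes too.

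None of the 5 receptor genes passed in limma at the adjusted threshold, and 0 of the 5 reached an unadjusted p under 0.05, against 30.7% of all tested genes. Sqstm1, which encodes p62, the receptor for ubiquitin-tagged cargo and itself degraded by autophagy, was the most abundant of the 36 genes. It was at 1987, 1958 and 1777 TPM in siControl and at 1912, 1908 and 1891 TPM in siHk2, so the siHk2 libraries lay inside the range of the controls; the interval of its log2 difference ran from -0.12 to 0.12. Tax1bp1, which hands ubiquitin-tagged clusters to the forming membrane, was at 150 ± 3.63 and 156 ± 4.33 TPM, and Optn, a receptor also for damaged mitochondria, at 39.8 ± 1.59 and 42.0 ± 1.68 TPM (SD, n = 3). Nbr1, which works with p62, was at 75.1, 76.4 and 68.3 TPM in siControl and at 75.7, 84.2 and 84.7 TPM in siHk2 (adjusted p = 0.167 in limma). Calcoco1, a receptor for the endoplasmic reticulum and Golgi, was at 41.4, 43.8 and 38.6 TPM in siControl and at 42.7, 49.1 and 47.9 TPM in siHk2 (adjusted p = 0.166 in limma). For both, 1 siHk2 library lay within the range of the controls and the others lay above it.

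Among the 3 mitophagy genes 1 rose and 2 did not pass, and Pink1 had the smallest p of the 36 genes. It encodes the kinase that builds up on depolarised mitochondria and phosphorylates ubiquitin there. It was at 76.8, 84.9 and 79.5 TPM in siControl and at 96.7, 112 and 111 TPM in siHk2, so all siHk2 libraries lay above all controls and the mean was 32.7% higher (log2 difference 0.40 with a 95% confidence interval from 0.24 to 0.57, SE 0.07, adjusted p = 0.0128 in limma). Pink1 passed in 11 of 14 alternative settings, more than any other of the 36.

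The receptors that act without ubiquitin did not pass. Bnip3l, which encodes NIX, an outer-membrane receptor that binds ATG8, was at 168, 157 and 165 TPM in siControl and at 157, 145 and 151 TPM in siHk2, and its difference of -0.11 did not pass (adjusted p = 0.169 in limma). Fundc1, an outer-membrane receptor tied to hypoxia, was at 42.2, 43.9 and 50.7 TPM in siControl and at 48.5, 54.7 and 48.9 TPM in siHk2, with overlapping groups. For Bnip3l, 23.4% of such 50-base windows are also found in its pseudogene Bnip3l-ps. Bnip3, the paralogue of Bnip3l and outside the 36, was at 167 ± 10.3 and 187 ± 10.7 TPM (SD, n = 3) and did not pass (adjusted p = 0.127 in limma).

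Of the 3 MiT/TFE factors 1 fell and none rose. Tfe3 and Tfeb had differences of opposite sign. Tfe3 was at 33.3, 30.3 and 29.0 TPM in siControl and at 26.3, 25.1 and 24.3 TPM in siHk2, a mean 18.3% lower with no overlap (log2 difference -0.28, SE 0.069, adjusted p = 0.0390 in limma). Tfeb, at a lower level, was at 10.6, 11.6 and 10.5 TPM in siControl and at 12.6, 13.3 and 12.6 TPM in siHk2; the groups did not overlap, but the difference of 0.22 did not pass (adjusted p = 0.0986 in limma). The ratio of Tfe3 to Tfeb was 3.15, 2.60 and 2.77 in siControl and 2.08, 1.89 and 1.93 in siHk2, lower in every siHk2 library; the ratio itself was not tested. Mitf, the third factor of the family and best known from pigment cells, was the least abundant of the 36 genes, at 4.68 ± 0.67 and 4.38 ± 0.338 TPM (SD, n = 3). Stx17, the SNARE that lets closed autophagosomes fuse with lysosomes, was at 16.0 ± 1.93 and 17.5 ± 1.73 TPM (SD, n = 3) and did not pass.

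**Figure D3:**
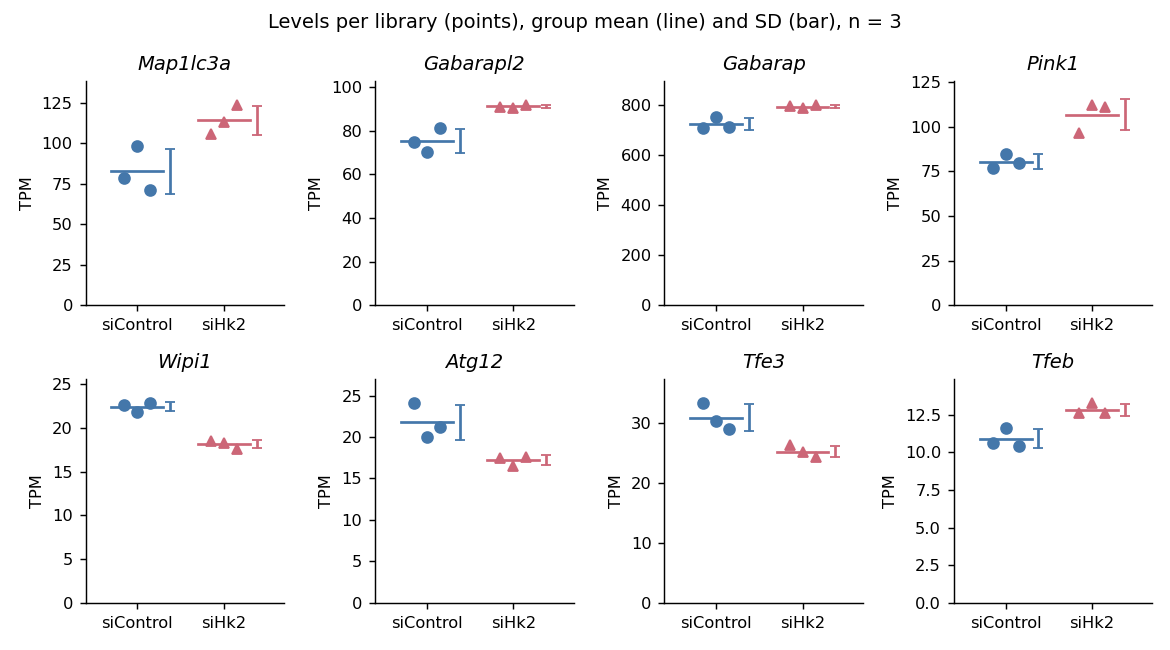
Levels (TPM, axes from 0) of the 6 genes that passed the threshold, with Gabarap and Tfeb, which did not; points are libraries, lines group means and bars the SD (n = 3). In all 8 panels the siHk2 libraries lie on one side of the control libraries.

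Wipi1 and Atg12, both of which fell, share a 7-base word in their transcripts. The word GGAGACT, which an earlier scan of these same fold changes had picked out in 3' untranslated regions (UTRs), so that no test is given for it, was in an annotated 3' UTR of 12 of the 36 genes (33.3%) and of 15.2% of all tested genes with a UTR. Tfe3, the other gene that fell, does not carry it, and none of the 3 that rose does. The 12 genes with the word had a median log2 difference of -0.03 and the 24 without it 0.10; over all tested genes the medians were -0.04 and 0.01. Of all tested genes with an annotated UTR, 23.5% of those that fell carry the word and 9.47% of those that rose. Longer UTRs hold any word more often: the median of the longest annotated UTR was 1956 bases in the 12 genes and 1196 bases in the 24. The part of this word, or of UTR length, in the falls was not tested, and the sequence of the siRNA is not given in the labels.

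The sites of 4 genes are shown, Wipi1 because it fell and Becn1, Atg5 and Uvrag because they carry the same word and did not pass. They are read 5′ to 3′ in the transcript (GENCODE M21), with 11 bases on each side and the word in capitals.
Wipi1 (chromosome 11), the first of 2 copies: tggcaggagctGGAGACTgtcagggcctc
Becn1 (chromosome 11): gaacctcagccGGAGACTcaaggtcactg
Atg5 (chromosome 10): gatggctgcttGGAGACTcctgctgttga
Uvrag (chromosome 7): tgcccacctcgGGAGACTctgagagaaag
The log2 differences of these genes were -0.29 for Wipi1, -0.05 for Becn1, -0.09 for Atg5 and 0.03 for Uvrag, and of all 12 genes of the list with the word, 2 fell and 10 did not pass. Calcoco1, with 3 copies, was above 0 (0.17).

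**Figure D4:**
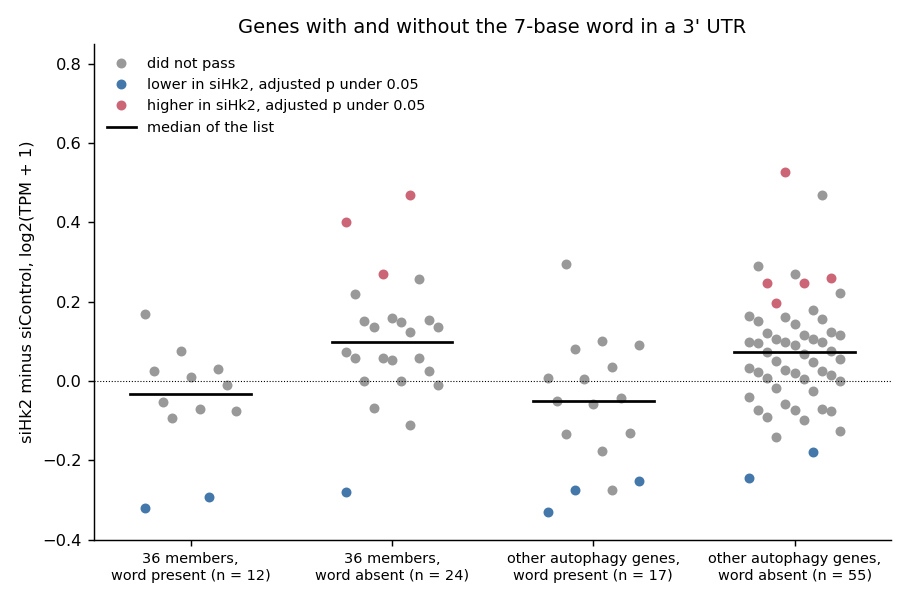
Log2 difference (siHk2 minus siControl, log2(TPM + 1)) of the 36 genes and of the other autophagy genes, split by whether an annotated 3' UTR holds the 7-base word; each point is a gene and the line the median. The medians are -0.03 with and 0.10 without the word for the 36 genes, and -0.05 and 0.07 for the other autophagy genes. The word was picked out from these same fold changes, so neither split is a separate result. Genes with the word also had longer UTRs (medians of 1956 against 1196 bases, and 2578 against 1332 bases).

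Of 77 further autophagy genes on a second list, 72 were tested, 5 rose, 5 fell and 62 did not pass (13.9%, against 13.6% of all tested genes), with a median log2 difference of 0.04. Among genes of initiation and membrane supply, Vmp1 and Tmem41b, which encode endoplasmic reticulum scramblases that act with ATG2, both rose: Vmp1 from 132 ± 1.63 to 157 ± 1.44 TPM and Tmem41b from 73.2 ± 1.47 to 84.0 ± 4.39 TPM (SD, n = 3; adjusted p = 0.00817 and 0.0472 in limma). Vmp1 passed in 13 of 14 alternative settings and Tmem41b in 7, and Tmem41b did not pass without siControl library 4 or 5 or any 1 of the siHk2 libraries. Sh3glb1, a membrane-bending partner of Beclin 1, fell from 88.7 ± 5.75 to 73.1 ± 0.97 TPM (adjusted p = 0.0208 in limma). In the fusion machinery, Vps33a, a subunit of the HOPS tether, fell from 60.5 ± 3.51 to 50.5 ± 0.358 TPM (adjusted p = 0.0253 in limma), and 13 of 14 tested genes did not pass. Of 5 further lipidation genes, none passed in limma and 2 (40.0%) reached an unadjusted p under 0.05, against 30.7% of all tested genes.

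Of 11 tested receptors of selective autophagy, a list in which most are receptors for the endoplasmic reticulum, Retreg1 and Retreg3 rose and 9 did not pass, among them Sec62, Rtn3, Tex264 and Atl3. Retreg1 was at 23.95, 25.4 and 31.4 TPM in siControl and at 40.4, 38.1 and 38.5 TPM in siHk2, higher in every siHk2 library (log2 difference 0.53, adjusted p = 0.0161 in limma), and Retreg3 rose from 44.7 ± 1.16 to 53.3 ± 1.45 TPM (adjusted p = 0.0184 in limma). Their relative Retreg2 was at 185 and 170 TPM, lower in every siHk2 library, and did not pass (adjusted p = 0.0979 in limma). Of 13 further mitophagy genes tested, 3 fell and none rose, where 7.42% of all tested genes fell and 6.15% rose. They were Bcl2l13, an outer-membrane receptor (35.7 ± 1.66 to 28.2 ± 0.745 TPM), Mfn2, the mitofusin that PINK1 phosphorylates (93.9 ± 1.96 to 82.8 ± 2.76 TPM), and Trim28, best known as a transcriptional corepressor (284 ± 7.22 to 239 ± 3.52 TPM), with adjusted p-values in limma of 0.0128, 0.0405 and 0.00961. Mfn2 passed in 6 of 14 alternative settings, and not when any 1 of the 6 libraries was left out. Flcn, the folliculin gene, whose product holds TFEB and TFE3 in the cytosol through the Rag GTPases, rose from 76.2 ± 1.53 to 91.4 ± 2.66 TPM (adjusted p = 0.0119 in limma). Of the 5 further genes that fell, Sh3glb1, Vps33a and Bcl2l13 carry the word GGAGACT in a 3' UTR. None of the 5 that rose does. The word had been picked out from these same fold changes, so this split is no separate result and no test is given. Over the tested genes of this second list 23.6% carry it, against 15.2% of all tested genes with a UTR. Their longest UTRs had a median of 2578 bases with the word and 1332 bases without it. For Tmem41b, 15.9% of such 50-base windows are also found in Gm6223.

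The same counts were taken for 3 neighbouring lists. Of 29 tested lysosomal hydrolases and membrane proteins, 4 rose and 2 fell (20.7%; median log2 difference 0.11). Of 16 subunits and accessory proteins of the vacuolar ATPase, the pump that acidifies lysosomes, 6 rose and none fell (37.5%; median 0.15). Of 31 subunits of the constitutive proteasome, the other main route of protein breakdown, Psma6 and Psmd1 fell and none rose (6.45%; median 0.01). Leaving out 1 library gave 0 to 7 vacuolar ATPase genes higher, the fewest without siHk2 library 3 and the most without siControl library 6, and 1 to 6 lysosomal genes higher. Over all tested genes, 193 were higher without siHk2 library 3 and 1023 without siControl library 6, against 820 with all libraries. The difference between these lists and the 36 genes was not tested.

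**Figure D5:**
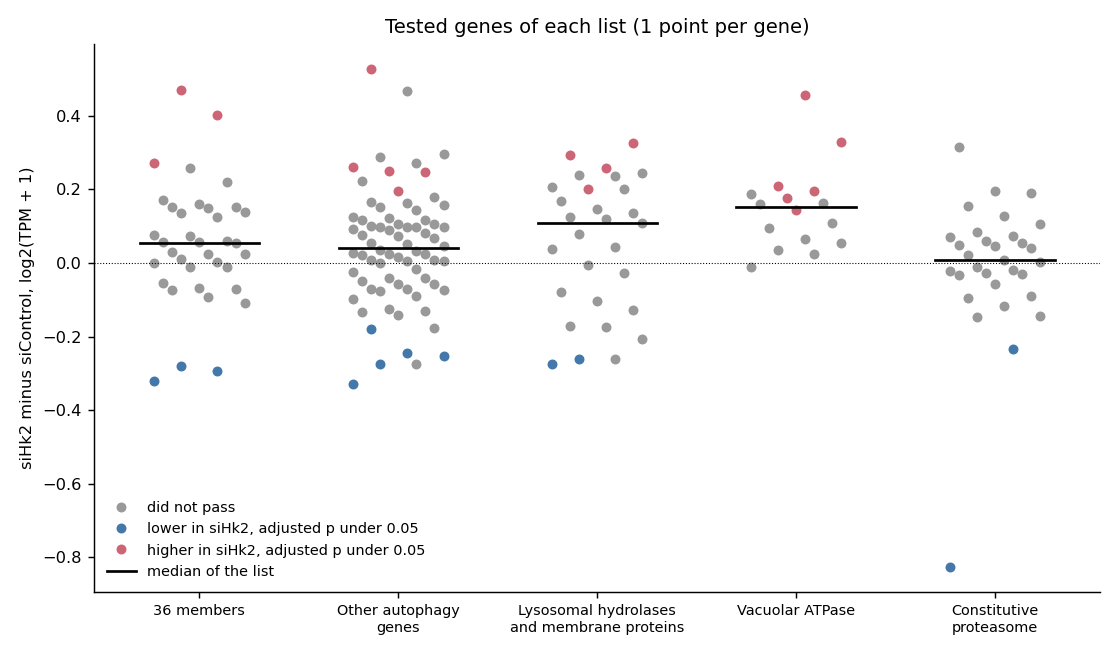
Log2 difference (siHk2 minus siControl, log2(TPM + 1)) of every tested gene of the 36 and of 4 other lists; each point is a gene, coloured where it passed the threshold, and the black line is the list's median. The medians are 0.06 for the 36 genes, 0.04 for the other autophagy genes, 0.11 for lysosomal genes, 0.15 for the vacuolar ATPase and 0.01 for the proteasome.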

How the data were processed

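RNA was sequenced from 6 libraries, 3 siControl and 3 siHk2, after Trizol extraction, oligo(dT) enrichment and DNA nanoball sequencing on a BGI platform, per the labels' protocols. The authors deposited TPM values, rounded to 2 decimals and not pooled, in 1 table; the build is GRCm39 (mm39) per the submitters' processing notes, while aligner, counter, annotation release and strand setting are not given. TPM keeps no depth, and since its total is fixed, shifts of abundant genes move the rest. The siControl columns (4, 5, 6) match no sample title and were used as replicates of that group without further identity.

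From these values, log2(TPM + 1) was fitted with limma 3.58.1 in R 4.3.3 (empirical Bayes with a mean-variance trend, no covariate, both groups in the fit) for the 13341 genes whose mean reached 1 TPM. Two-sided p-values were adjusted over all of them (Benjamini-Hochberg), with a threshold of 0.05. The procedure was also run on simulated data. The simulated log2 changes were larger than any found among the 36 genes, so that run does not cover changes of their size. The pseudocount of 1 understates the change of low genes; percentages and folds are ratios of mean TPM. The 36 genes and all lists were chosen with earlier results of these data known. Named were all 36 genes, Hk2 and up to 4 genes past the threshold in each other list. Bnip3, Retreg2, Sec62, Rtn3, Tex264, Atl3, Thap4, Zcchc14 and the single cell type markers fall outside this rule and were named after their values were seen. Promoter windows are from RefSeq (GRCm38.p6), and transcripts, 3' UTRs and 50-base windows from GENCODE M21 (GRCm38), matched by symbol or gene ID; no coordinates were carried between builds. Alternatives were other pseudocounts, filters, scalings and variance settings, and leaving out each library. Figures were drawn with matplotlib 3.10.9.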

Additional observations from a re-analysis of the deposited data

How the results depend on the processing

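Over 14 alternatives, the direction of the 6 genes that passed did not change in any. Pink1 passed in 11 of them, Wipi1 in 10, Gabarapl2 in 9 and Map1lc3a, Atg12 and Tfe3 in 7 each. Hk2 passed in all 14, with log2 differences from -1.43 to -1.37 when 1 library was left out. With no filter on low values, 1186 of 22355 genes passed, 501 higher and 685 lower. Of the 36, 2 were higher and 1 lower. With no mean-variance trend, 1057 of 13341 genes passed, 484 higher and 573 lower. There 1 of the 36 was higher and 1 lower, and 4 other autophagy genes were higher and 2 lower. With library weights, 4040 of 13341 genes passed, 2032 higher and 2008 lower, and 7 of the 36 and 14 other autophagy genes were higher. Under these weights Wipi1, Atg12 and Tfe3 still passed as lower, as did Sh3glb1, Vps33a, Bcl2l13, Mfn2 and Trim28. Leaving out 1 library gave 506 to 2129 genes, 0 to 4 of the 36 higher, 0 to 2 lower, and 0 to 10 other autophagy genes higher and 1 to 5 lower. The lysosomal, vacuolar ATPase and proteasome lists were added to these recomputations after the data were seen. Of 16 vacuolar ATPase genes, 3 were higher with no filter on low values, 2 with no mean-variance trend and 8 with library weights. With weights, 7 of 31 proteasome genes were higher and 5 lower, and 11 of 29 lysosomal genes were higher and 6 lower. The counts over all genes in the same settings are those given above. For these counts the cause was not tested.

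Reversals were found among genes that had not passed. Sqstm1 was at 0.0039 with median ratio scaling and 0.0020 rescaled over nuclear protein-coding rows; with library weights Atg13 was at 0.034, Pik3c3 at 0.045, Atg14 at -0.055 and Uvrag at -0.055. When 1 library was left out, the range was -0.068 to 0.069 for Atg10, -0.062 to 0.082 for Atg13, -0.056 to 0.077 for Atg14, -0.024 to 0.126 for Atg2a, -0.026 to 0.033 for Atg7, -0.155 to 0.014 for Mitf, -0.046 to 0.055 for Pik3c3, -0.051 to 0.029 for Sqstm1, -0.210 to 0.068 for Ulk1 and -0.109 to 0.117 for Uvrag. Mitf has no value under the filter of 5 TPM. No paired analysis was possible because the control columns carry the numbers 4 to 6 and the siHk2 columns 1 to 3, so the groups share no number; the sample titles of both groups run from 1 to 3, but the control columns cannot be matched to them. Depth is unknown, so its limit on low genes cannot be stated.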

Other observations

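Of 16 tested subunits and accessory proteins of the vacuolar ATPase, 6 rose, none fell and 10 did not pass, while 6.15% of all tested genes rose. Of the 16, 15 had a log2 difference above 0, as did 51.2% of all tested genes, and 8 lay higher without overlap of the groups, as did 17.6% of all tested genes. The count of 6 fell to 2 with no mean-variance trend and to 0 without siHk2 library 3. Over all tested genes the count higher fell from 820 to 484 and to 193 in these settings. Atp6v1f, a small subunit of the cytosolic V1 sector, was at 247, 240 and 297 TPM in siControl and at 366, 345 and 362 TPM in siHk2 (log2 difference 0.46, adjusted p = 0.0135 in limma). Atp6v1g1, of the stalk of the same sector, was at 472, 539 and 505 TPM in siControl and at 638, 629 and 633 TPM in siHk2 (log2 difference 0.33, adjusted p = 0.0105 in limma). Atp6v1c1 rose from 140 ± 3.55 to 161 ± 3.70 TPM and the accessory protein gene Atp6ap2 from 321 ± 16.2 to 371 ± 9.86 TPM (SD, n = 3; adjusted p = 0.0236 and 0.0315 in limma). For Atp6v1g1, 19.2% of the 50-base windows were also found in transcripts of 2 other genes, and for Atp6v1f 12.55% in those of 1 other gene.

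Lysosomal genes moved both ways. Tpp1, a lysosomal peptidase, rose from 203 ± 3.67 to 243 ± 3.59 TPM, Asah1, the acid ceramidase, from 183 ± 10.04 to 229 ± 13.8 TPM, and the membrane protein gene Lamp2 from 131 ± 9.49 to 160 ± 0.904 TPM, while the protease gene Ctsb fell from 446 ± 11.9 to 368 ± 11.3 TPM (SD, n = 3; adjusted p = 0.00742, 0.0156, 0.0177 and 0.00873 in limma). The adipocyte marker sums given above also differed between the groups, and their part in these results was not tested.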
